A study of Arabidopsis thaliana with 6 samples.

Results

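Sulfate uptake and assimilation genes were followed in roots of the Arabidopsis ipt1,3,5,7 mutant after cytokinin treatment. The genes were 10 loci picked by identifier from the 33602 loci in the count files: the sulfate transporter genes SULTR1;1, SULTR1;2, SULTR2;1 and SULTR2;2, the adenosine 5′-phosphosulfate (APS) reductase genes APR1, APR2 and APR3, and the low-sulfur response genes LSU1, LSU2 and SDI1. All 10 passed the filter on low counts and were tested. The treated roots were from 7-d-old ipt1,3,5,7 plants moved on a nylon mesh to 1 µM 6-benzylaminopurine (BAP, a synthetic cytokinin) and collected 4 h later (3 libraries). The control roots were from plants of the same genotype and age, moved in the same way to the solvent dimethyl sulfoxide (DMSO) and collected after 1 h (3 libraries). Every library therefore carried the mutations in the isopentenyltransferase genes IPT1, IPT3, IPT5 and IPT7, which make the first step of cytokinin synthesis, and no wild-type library was used. Primary roots were cut below the hypocotyl, and root tips and lateral roots were discarded. The hormone and the time after transfer differ together between the groups and cannot be told apart. In such bulk RNA, fewer cells of a type and less transcript per cell cannot be told apart either.

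Roots take up sulfate with SULTR1;1 and SULTR1;2, high-affinity carriers of root hairs, epidermis and cortex, and SULTR2;1 and SULTR2;2 are low-affinity carriers of the vascular tissue that serve transport between organs. Inside the cell, ATP sulfurylase joins sulfate to ATP to form APS, APS reductase reduces it to sulfite, and sulfite reductase and O-acetylserine (thiol)lyase carry the sulfur into cysteine, from which glutathione is made. LSU1, LSU2 and SDI1 are known for their accumulation under sulfur limitation, and SDI1 represses glucosinolate synthesis. The microRNA miR395, itself induced by sulfur limitation, cleaves transcripts of SULTR2;1 and of ATP sulfurylases.

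The mature miR395 sequences are shown because SULTR2;1, the member that differed most between the groups, is a known target of this family. They were read from the TAIR10.1 genome at the RefSeq miRNA entries. Capitals mark the seed, bases 2 to 8, which all 6 loci share.
miR395a, miR395d and miR395e: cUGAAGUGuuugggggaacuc
miR395b, miR395c and miR395f: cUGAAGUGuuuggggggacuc
All 6 precursor loci had 0 counts in all 6 libraries, which allows up to 3 counts per library, or 0.144 to 0.157 CPM (counts per 1e6 counts, with TMM-scaled library sizes). Mature miRNAs are too short for this library type, so their level was not measured.

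The complementary stretches in the sulfate genes are printed 5′ to 3′ on the mRNA strand. Capitals mark bases that pair with miR395 by Watson-Crick rules, and lower case marks mismatches.
SULTR2;1, chr5:3193268-3193288 (+), coding: aAGTTCtCCCAAACACTTCAa
APS1, chr3:8113164-8113184 (+), coding: GAGTTCCtCCAAACtCTTCAt
APS3, chr4:8414958-8414978 (-), coding: GAGTTCCtCCAAACtCTTCAt
APS4, chr5:17591121-17591141 (-), coding: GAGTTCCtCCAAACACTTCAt
SULTR2;1, APS1 and APS3 had 3 mismatches and APS4 had 2. A stretch with at most 4 mismatches was found in 15 of 27440 protein-coding genes (0.0547%), and the closest stretch in the other 9 members had 8 to 10 mismatches. A match in sequence is a description and not evidence of cleavage.

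Upstream sequence is given for 3 members whose values differed in kind: SULTR2;1 and APR1, which were lower with BAP, and APR3, which was not called. Each line holds the 250 bases before the RefSeq gene start in TAIR10.1, and capitals mark a match to the core of type-B response regulator (ARR) binding sites, namely AGATAC or AGATAT, also AGATCC or AGATCT, and also AGATTC or AGATTT, searched on both strands.
SULTR2;1, chr5:3192767-3193016 (+): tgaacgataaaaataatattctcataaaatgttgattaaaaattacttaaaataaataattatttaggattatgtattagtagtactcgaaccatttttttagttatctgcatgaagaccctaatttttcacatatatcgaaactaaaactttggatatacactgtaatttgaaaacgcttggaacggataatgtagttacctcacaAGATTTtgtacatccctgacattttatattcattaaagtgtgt
APR1, chr4:2324628-2324877 (+): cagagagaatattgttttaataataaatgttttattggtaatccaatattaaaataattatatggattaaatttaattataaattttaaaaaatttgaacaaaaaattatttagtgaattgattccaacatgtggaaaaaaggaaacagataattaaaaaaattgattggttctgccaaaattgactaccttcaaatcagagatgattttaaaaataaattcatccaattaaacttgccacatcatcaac
APR3, chr4:11659168-11659417 (-): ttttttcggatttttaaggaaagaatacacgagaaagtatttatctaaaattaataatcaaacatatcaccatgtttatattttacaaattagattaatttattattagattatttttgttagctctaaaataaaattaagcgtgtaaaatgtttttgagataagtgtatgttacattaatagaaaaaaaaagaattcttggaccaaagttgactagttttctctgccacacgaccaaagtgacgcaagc
SULTR2;1 held 1 match, AGATTT beginning 43 bases before the start, and APR1 and APR3 held none in this window. Over the 10 members, 5 held at least 1 match: SULTR2;1, SULTR1;2, APR2 and SDI1 held 1 each and SULTR2;2 held 3. The SULTR1;2 window is chr1:29327265-29327514, since its RefSeq start lies far upstream of the deposited start at 29329735. Its match is therefore not close to the deposited start, and its sequence is not printed. Such a match was present in 66.3% of the 27443 promoter windows of the same length. The sulfur-responsive core GAGAC, present in 25.8% of all windows, occurred among the members in SDI1 alone, 23 bases before its start. The G-box CACGTG, the core bound by HY5, was in 6.49% of all windows and in no member.

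Total counts were 20085917 to 20127269 in BAP libraries and 19957748 to 20026876 in DMSO libraries, and 24197 to 24516 loci were detected per library. Log2 CPM correlated at r = 0.988 to 0.992 within groups and 0.934 to 0.950 between them (across genes, which are not independent replicates). The type-A ARR genes, primary targets of cytokinin signalling, were called higher with BAP in 9 of 9 tested. The mutated IPT genes summed to 1.24 to 2.67 CPM in BAP libraries and 15.0 to 17.6 CPM in DMSO libraries. With no wild type, these counts do not check the genotype. Of 8 clock genes, 4 were called higher and 3 lower, against 11.6% higher and 11.4% lower among all genes tested. The part of the clock genes in the results was not tested. Marker lists for root hair and epidermis, endodermis and stele were detected in every library, as were lists for the discarded root tip (summed 19.9 to 27.5 CPM with BAP and 28.8 to 33.3 CPM with DMSO) and for shoot (54.6 to 98.7 CPM with BAP and 52.5 to 75.1 CPM with DMSO).

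With BAP, 3 of the 10 members were lower, SULTR2;1, SULTR1;2 and APR1, none was higher, and 7 were not called. To be called, a gene needed an edgeR adjusted p no greater than 0.05 and a log2 fold change of 0.5 or more in either direction (the fold minimum). Over all 20987 genes tested, 11.4% were called lower, 11.6% higher and 22.9% in either direction. At an unadjusted p under 0.05, 5 members were lower and none was higher, against 24.0% lower and 23.2% higher among all genes tested, and DESeq2 likewise called 3 lower and none higher. The median log2 fold change was -0.37 over the members and 0.00 over all genes tested. The groups did not overlap in 5 members, against 51.4% of all genes tested. The members were chosen with earlier results of these data known, so their counts are no test against all genes.

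**Figure D1:**
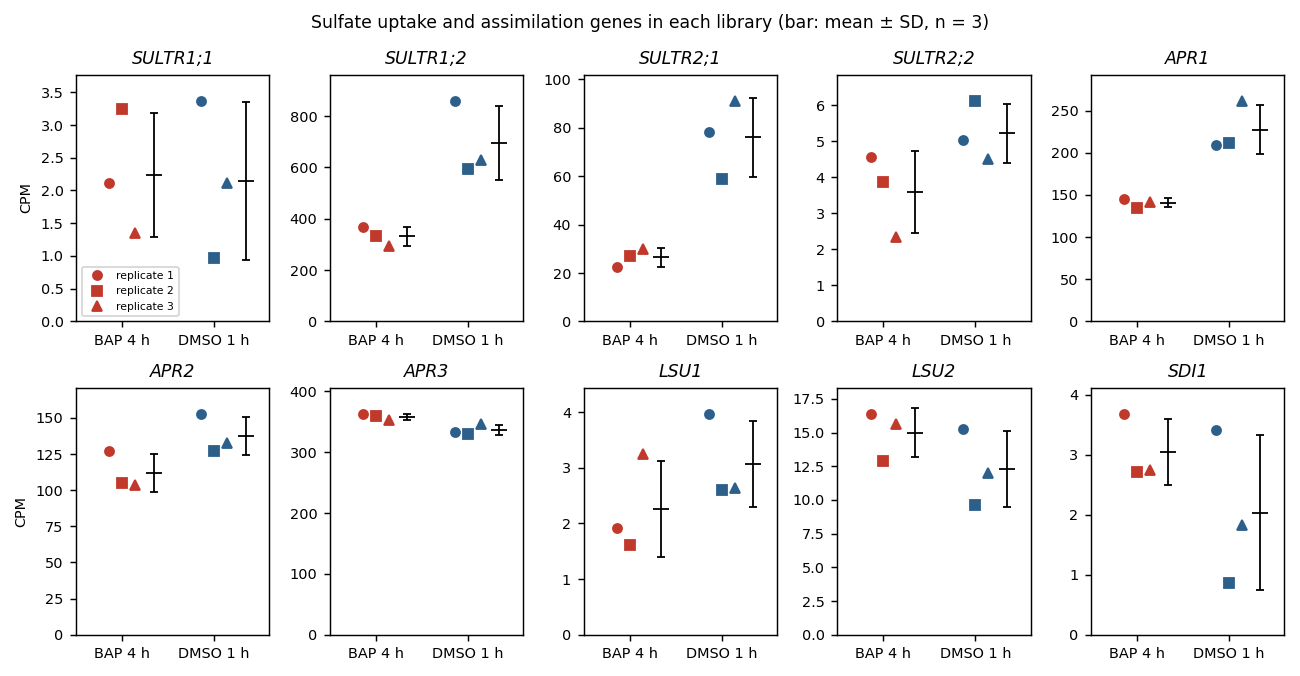
Expression of the 10 members in each library, in TMM-scaled CPM on linear axes that start at 0, with BAP 4 h (red) left of DMSO 1 h (blue). Each point is 1 library, its shape gives the replicate number and the bar is the mean ± SD (n = 3). The BAP libraries of SULTR1;2, SULTR2;1 and APR1 all lie below the DMSO libraries, while SULTR1;1 and SDI1 spread widely among the DMSO libraries.

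SULTR1;2 (AT1G78000, chromosome 1, 29329735 to 29333146, + strand, TAIR10) is the main carrier for sulfate entry into the root. It had 370, 332 and 292 CPM in BAP roots, against 859, 594 and 627 CPM in DMSO roots. Every BAP library was below every DMSO library, and DMSO 1 stood above the other DMSO libraries. The means were 331.2 ± 38.7 and 693.5 ± 144 CPM (SD, n = 3 each), and the transcript was 2.09-fold lower with BAP (log2 fold change -1.07 ± 0.15 SE, edgeR adjusted p = 7.93e-04).

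SULTR1;1 (AT4G08620, chromosome 4, 5500313 to 5506265, + strand) encodes the second high-affinity uptake carrier, which is known for its strong induction when sulfate runs short. It was scarce, with 2.12, 3.24 and 1.35 CPM in BAP roots and 3.37, 0.964 and 2.11 CPM in DMSO roots, from 27 to 62 reads per BAP library and 20 to 68 per DMSO library. The groups overlapped over nearly their whole range. The log2 fold change was 0.06 ± 0.44 (edgeR adjusted p = 0.931), and it was -0.31 without BAP 2 and also without DMSO 2. Per kb of mRNA, SULTR1;2 made up 99.3 ± 0.276% of the summed level of both uptake carriers in BAP roots and 99.7 ± 0.123% in DMSO roots.

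Markers of root hair and epidermis, the cells in which both uptake carriers are known to act, summed to 105.5, 130.8 and 112.8 CPM in BAP 1, 2 and 3, against 122.8, 40.9 and 74.5 CPM in DMSO 1, 2 and 3. None of these 5 markers was at 0, and 1 was called higher. DMSO 2 was lowest for this sum, for SULTR1;1 and for SDI1, and DMSO 1 was the highest DMSO library for all of these and for SULTR1;2. The part of root hair cells in these values was not tested. The log2 fold change of SULTR1;2 was -1.18 without DMSO 2 and -0.90 without DMSO 1, and it was called in each of these fits.

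SULTR2;1 (AT5G10180, chromosome 5, 3193144 to 3197120, + strand) encodes a low-affinity carrier of xylem parenchyma, pericycle and phloem, known for root-to-shoot sulfate transport. It had 22.4, 27.2 and 29.8 CPM in BAP roots, against 78.1, 58.9 and 91.1 CPM in DMSO roots. All BAP libraries lay below all DMSO libraries, of which DMSO 2 was the lowest. The means were 26.4 ± 3.77 and 76.0 ± 16.2 CPM (SD, n = 3 each), 2.87-fold lower with BAP, the largest change among the members (log2 fold change -1.52 ± 0.16, edgeR adjusted p = 1.75e-04).

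SULTR2;2 (AT1G77990, chromosome 1, 29317899 to 29323352, - strand), a low-affinity carrier known from the phloem, had 4.55, 3.87 and 2.35 CPM in BAP roots and 5.05, 6.12 and 4.51 CPM in DMSO roots. BAP 1 lay just above DMSO 3, so the groups overlapped. The log2 fold change was -0.54 ± 0.24 and was not called (edgeR adjusted p = 0.103). With the replicate number as a block it was -0.56 and was called lower (edgeR adjusted p = 0.0400). An annotated antisense locus, AT1G77992, covers 32.3% of its 50-base exon words. That locus had 0 counts in all 6 libraries, but the kit does not mark strand, so reads of the pair cannot be told apart.

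Stele markers, from the tissue in which SULTR2;1 and SULTR2;2 are known to act, summed to 343.8 to 396.0 CPM in BAP libraries and 844.1 to 1152 CPM in DMSO libraries. Of these 4 markers, 2 were called lower and 1 higher, and none was at 0. The sums follow PHO1, a phosphate exporter of the stele, with 279 to 314 CPM in BAP libraries and 726 to 960 CPM in DMSO libraries, and the potassium channel gene SKOR was also lower (2.54 to 4.23 CPM with BAP and 74.1 to 150.6 CPM with DMSO). The phloem markers SUC2 (42.5 to 69.0 CPM with BAP and 22.2 to 30.8 CPM with DMSO) and APL (11.7 to 15.4 CPM with BAP and 9.41 to 10.9 CPM with DMSO) were higher in every BAP library, with APL not called. Their part in the SULTR2;1 values was not tested.

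The 3 APS reductase genes, which encode the plastid enzymes of the reduction step, took different values. APR1 (AT4G04610, chromosome 4, 2325003 to 2327013, + strand) had 146, 135 and 141 CPM in BAP roots, against 209, 212 and 261 CPM in DMSO roots. The BAP libraries lay close together and below all DMSO libraries. The means were 140.7 ± 5.37 and 227.6 ± 29.3 CPM (SD, n = 3 each), 1.62-fold lower with BAP (log2 fold change -0.69 ± 0.10, edgeR adjusted p = 6.92e-04).

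APR2 (AT1G62180, chromosome 1, 22975530 to 22977625, - strand), known as the isoform that carries most APS reductase activity in leaves, had 127, 105 and 103 CPM in BAP roots, against 153, 127 and 132 CPM in DMSO roots. BAP 1 lay just below DMSO 2, the lowest DMSO library, so the groups did not overlap but nearly met. The log2 fold change of -0.30 ± 0.10 was under the fold minimum and its edgeR adjusted p was 0.0509. In the alternatives this p fell on either side of 0.05. It was 0.0417 with DESeq2, and in edgeR 0.0031 with a replicate block and GC correction and 0.159 without BAP 3. The log2 fold change stayed under the fold minimum throughout (-0.40 to -0.23). Of its exon words 9.50% are shared with the antisense locus AT1G62170, which had at most 1 read per library.

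APR3 (AT4G21990, chromosome 4, 11657008 to 11659167, - strand) had 362, 359 and 353 CPM in BAP roots, against 333, 331 and 346 CPM in DMSO roots. The BAP libraries lay above the DMSO libraries, but by little. The log2 fold change was 0.09 ± 0.07 (edgeR adjusted p = 0.308).

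To set the isoforms side by side, each was expressed as a share of their summed level per kb within a library. Shares within a library are tied, so a lower share of APR1 by itself raises the others. APR3 made up 57.1%, 60.1% and 59.2% in BAP roots, against 48.1%, 49.6% and 47.1% in DMSO roots. APR1 made up 22.4 ± 0.563% in BAP roots and 31.5 ± 2.65% in DMSO roots. For both shares the groups did not overlap, and the two-sided exact permutation p was 0.1 (0.125 adjusted over 5 shares tested), the smallest that 3 against 3 libraries can give. The share of APR2 was 18.8 ± 1.55% in BAP roots and 20.2 ± 2.14% in DMSO roots, and its groups overlapped (exact permutation p = 0.5, adjusted 0.5).

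**Figure D2:**
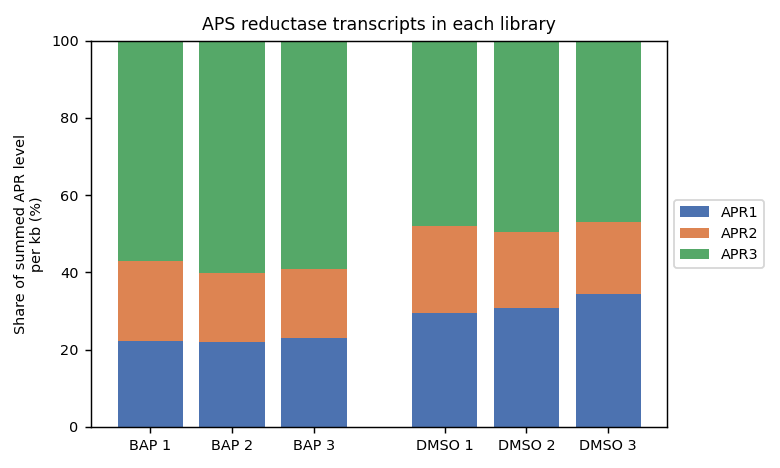
Share of APR1, APR2 and APR3 in their summed level per kb (%, linear axis), 1 stacked bar per library, BAP 4 h on the left and DMSO 1 h on the right. APR3 (top) takes 57.1% to 60.1% in BAP libraries and 47.1% to 49.6% in DMSO libraries, and APR1 (bottom) takes less in every BAP library.

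The 3 low-sulfur response genes were not called. LSU1 (AT3G49580, chromosome 3, 18375269 to 18375784, - strand), which encodes a small protein without a known enzyme activity, had 1.91, 1.62 and 3.24 CPM in BAP roots, against 3.96, 2.60 and 2.64 CPM in DMSO roots. BAP 3 lay within the DMSO range and the other BAP libraries below it. The log2 fold change was -0.43 ± 0.29 (edgeR adjusted p = 0.272). LSU2 (AT5G24660, chromosome 5, 8443279 to 8443834, - strand), of the same family, had 16.4, 12.9 and 15.7 CPM in BAP roots, against 15.3, 9.59 and 12.0 CPM in DMSO roots. The groups overlapped, with a log2 fold change of 0.29 ± 0.17 (edgeR adjusted p = 0.211). LSU2 made up 84.8 ± 4.20% of the summed level of LSU1 and LSU2 per kb in BAP roots and 76.8 ± 1.94% in DMSO roots. The groups did not overlap but nearly met, at 80.0% in BAP 3 and 79.0% in DMSO 3 (exact permutation p = 0.1, adjusted 0.125). Other LSU genes were left out of this share.

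SDI1 (AT5G48850, chromosome 5, 19805437 to 19807759, - strand) had 3.67, 2.72 and 2.74 CPM in BAP roots, against 3.42, 0.868 and 1.82 CPM in DMSO roots. DMSO 1 lay inside the BAP range, and DMSO 2 and 3 lay below it. The log2 fold change was 0.58 ± 0.40 (edgeR adjusted p = 0.282). Without DMSO 1 it was 1.16 and was called (edgeR adjusted p = 0.0259), so this library decides the call.

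The members spanned a wide range of levels, compared here as CPM per kb of mRNA. In DMSO roots SULTR1;2 was first with 249 to 360, followed by APR3 with 194 to 203, APR1 with 119 to 149 and APR2 with 76.6 to 91.7 CPM per kb, with no overlap between these neighbours. SULTR2;1 (24.4 to 37.7) and LSU2 (17.3 to 27.4) overlapped, LSU1 followed with 5.67 to 8.63, and SULTR2;2 (2.05 to 2.78), SDI1 (0.775 to 3.05) and SULTR1;1 (0.417 to 1.46) were lowest, with neighbours overlapping. In BAP roots APR3 came first with 207 to 212 CPM per kb, above SULTR1;2 with 123 to 155, and LSU2 (23.2 to 29.4) lay above SULTR2;1 (9.25 to 12.3). Among the lowest, SDI1 had 2.43 to 3.28, SULTR2;2 1.06 to 2.07 and SULTR1;1 0.583 to 1.40 CPM per kb in BAP roots. At the length used, SULTR1;2 stood below APR3 in every BAP library and above all 3 APS reductase genes in every DMSO library. In plain CPM, SULTR1;2 was above APR3 in BAP 1 (369.7 against 362.3). The length of SULTR1;2 is uncertain because its annotated transcripts start far apart. The length used was 2385 bases, while its annotated exons together hold 4193 bases. This bears on its place in the order but not on its change.

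**Figure D3:**
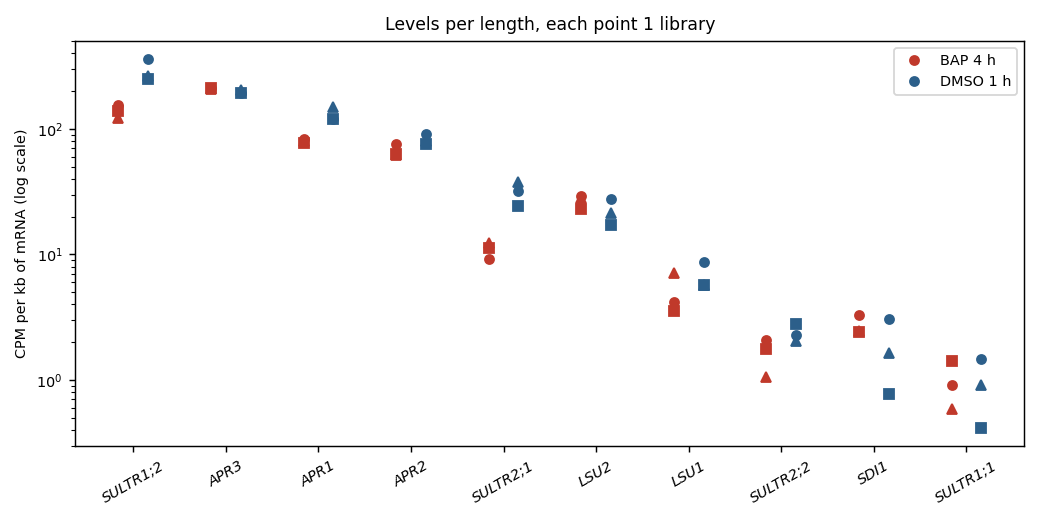
Levels of the 10 members per kb of mRNA (CPM per kb, log axis), each point 1 library, BAP 4 h (red) left of DMSO 1 h (blue), genes ordered by their DMSO mean. At the length used, which is uncertain for SULTR1;2, that gene leads in DMSO libraries with 249 to 360 CPM per kb. APR3 leads in BAP libraries with 207 to 212, and SULTR1;1, SDI1 and SULTR2;2 are at the bottom.

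The other genes of sulfate transport and assimilation moved in both directions. Of 33 genes in 5 lists, 31 were tested, 12 were called higher with BAP, 6 lower and 13 were not called, with a median log2 fold change of 0.11, against 11.6% higher and 11.4% lower among all genes tested. The lists were chosen with earlier results of these data known, so these counts are no test against all genes. Together with the members, 11 of 12 genes of the SULTR1 to SULTR4 groups were tested, of which 3 were higher and 5 lower.

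Among the other sulfate transporters, 3 were lower and 3 higher of 7 tested. SULTR1;3, the phloem member of the high-affinity group, had 13.1, 10.5 and 10.9 CPM in BAP roots, against 34.6, 23.5 and 25.8 CPM in DMSO roots (log2 fold change -1.28 ± 0.16, edgeR adjusted p = 3.45e-04). SULTR4;1 and SULTR4;2, which release sulfate from the vacuole, had log2 fold changes of -1.06 ± 0.10 and -0.56 ± 0.09, and SULTR4;2 was under the fold minimum without BAP 3 (-0.49). Thus each of the called genes of the SULTR1, SULTR2 and SULTR4 groups was lower, whereas each called gene of the SULTR3 group was higher. SULTR3;4, also known as a phosphate distribution carrier, had 167, 199 and 166 CPM in BAP roots, against 39.9, 39.6 and 41.3 CPM in DMSO roots, the largest increase of the lists (log2 fold change 2.14 ± 0.09, edgeR adjusted p = 1.20e-06). SULTR3;5, a partner of SULTR2;1 in the root vasculature, had 54.5, 48.3 and 59.8 CPM in BAP roots, against 21.4, 21.2 and 21.6 CPM in DMSO roots (log2 fold change 1.34 ± 0.09). SULTR3;3 was called at 0.79 ± 0.25, but not by DESeq2 (adjusted p = 0.0523), nor without BAP 2, BAP 3, DMSO 1 or DMSO 3 (0.63 to 0.77). SULTR3;1 was left out by the filter, with 3, 14 and 14 reads in BAP libraries and 2, 1 and 2 reads in DMSO libraries. DESeq2, run without that filter, called 3 of these other transporters higher, counting SULTR3;1 and not SULTR3;3.

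The genes of activation and reduction around the APS reductases were lower or not called. APS4, an ATP sulfurylase gene and the one with the closest miR395 match, had 404.6, 458.7 and 382.2 CPM in BAP roots, against 683.4, 794.1 and 641.1 CPM in DMSO roots (log2 fold change -0.77 ± 0.11, edgeR adjusted p = 7.58e-04). APS1 and APS3, which share the same stretch, had log2 fold changes of -0.43 ± 0.12 (edgeR adjusted p = 0.0247, under the fold minimum) and -0.19 ± 0.13 (0.265), and APS2, without such a stretch, had 0.11 ± 0.06 (0.177). Of the 4 sulfate genes with a miR395 stretch, SULTR2;1 and APS4 were called lower and APS1 and APS3 were not called. Among all genes tested, 11.4% were called lower. The family was looked up because of the SULTR2;1 values, so this count is a description and not a test. Values of the other genes with such a stretch are not given here, and the part of miR395 was not tested. The sulfite reductase gene SIR was not called (-0.08 ± 0.08).

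APS kinases divert APS to 3′-phosphoadenosine 5′-phosphosulfate, the donor for sulfation of glucosinolates and other compounds. Of 4 tested, APK2 (log2 fold change 0.96 ± 0.11) and APK4 (0.97 ± 0.19) were higher. APK2 had 239.9, 285.5 and 238.6 CPM in BAP roots, against 117.2, 125.3 and 149.9 CPM in DMSO roots. APK1 (0.25 ± 0.08) and APK3 (0.08 ± 0.12) were not called.

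Of 10 genes of cysteine and glutathione synthesis, 4 were higher and 2 lower. GSH1, the first and limiting enzyme of glutathione synthesis, had 615.7, 636.1 and 641.7 CPM in BAP roots, against 335.8, 290.7 and 335.1 CPM in DMSO roots (log2 fold change 0.98 ± 0.08, edgeR adjusted p = 4.50e-05). The O-acetylserine (thiol)lyase genes OASA1 (0.53 ± 0.08) and OASC (0.66 ± 0.08) and the serine acetyltransferase gene SERAT1;1 (0.53 ± 0.09) were also higher. OASA1 fell under the fold minimum without DMSO 2 (0.48), and SERAT1;1 without BAP 2 (0.47) or DMSO 3 (0.47) or with a GC correction (0.49). The minor serine acetyltransferase genes SERAT3;1 (-0.86 ± 0.12) and SERAT3;2 (-1.09 ± 0.26) were lower.

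Of 5 further low-sulfur response genes tested, 3 were higher. GGCT2;1, a cyclotransferase that degrades glutathione, had 6.47, 8.15 and 8.43 CPM in BAP roots, against 2.48, 1.64 and 2.98 CPM in DMSO roots (log2 fold change 1.70 ± 0.21, edgeR adjusted p = 3.92e-04). LSU4 (0.77 ± 0.18) and LSU3 (0.82 ± 0.27), relatives of LSU1 and LSU2, were also called, LSU3 not without BAP 1, BAP 3, DMSO 2 or DMSO 3 (0.56 to 0.82). BGLU28, a glucosinolate-cleaving glucosidase, was left out by the filter with 12, 10 and 12 reads in BAP libraries and 7, 0 and 9 reads in DMSO libraries.

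**Figure D4:**
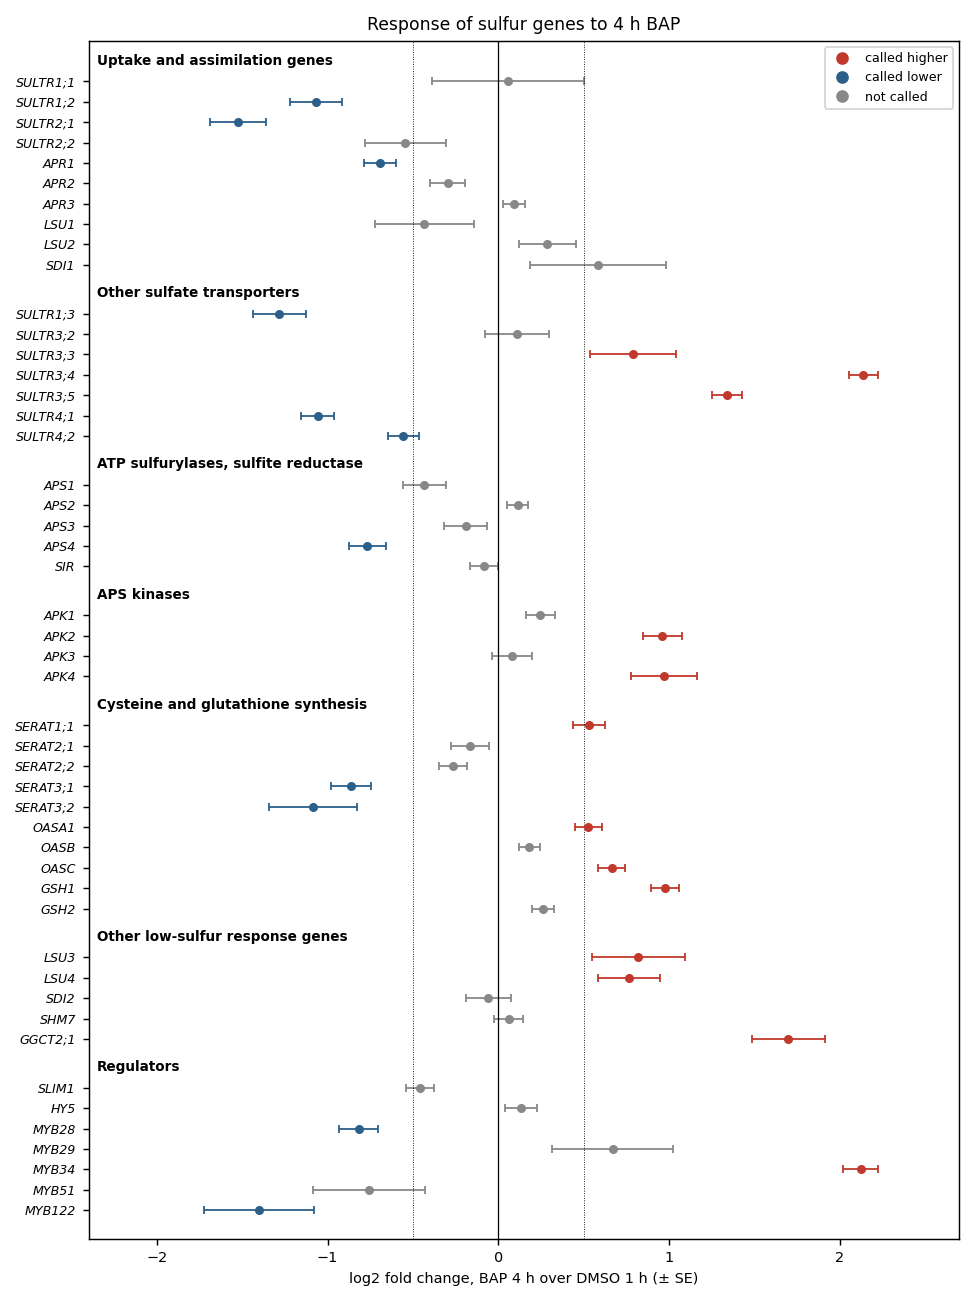
Log2 fold change of BAP 4 h over DMSO 1 h (± SE) for the 10 members and the other tested sulfur genes, grouped by role from uptake to glutathione and regulators. Red points were called higher, blue points lower and grey points not called, and dotted lines mark the fold minimum of 0.5. SULTR2;1 (-1.52) is the lowest of all and SULTR3;4 (2.14) the highest.

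Of 7 regulators of sulfur metabolism, MYB34 was higher and MYB28 and MYB122 were lower, against 22.9% called in either direction among all genes tested. MYB34, an activator of indolic glucosinolate genes, had 296.2, 347.4 and 302.2 CPM in BAP roots, against 75.3, 78.0 and 64.1 CPM in DMSO roots (log2 fold change 2.12 ± 0.10, edgeR adjusted p = 2.46e-06). MYB28, an activator of aliphatic glucosinolate genes, had a log2 fold change of -0.82 ± 0.12, and MYB122, of the indolic group, -1.40 ± 0.32. SLIM1, the central activator of the low-sulfur response and of SULTR1;2, had 22.7, 26.3 and 22.4 CPM in BAP roots, against 32.1, 32.6 and 33.5 CPM in DMSO roots. Its groups did not overlap, but the log2 fold change of -0.46 ± 0.08 was under the fold minimum (edgeR adjusted p = 0.00257). HY5, which binds promoters of APS reductase genes, was at 0.13 ± 0.10 and was not called.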

How the data were processed

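RNA-Seq was made from ipt1,3,5,7 roots (TruSeq RNA v2 libraries), and per the study's methods BGI prepared and sequenced the libraries. The deposited files hold raw counts per gene, 1 file per library. Per the labels, reads were checked with FastQC, mapped with Bowtie2 to TAIR10 and counted with HTSeq. Versions, the strand setting and the handling of multi-mapped reads were not given in the sources used here. Groups and replicate numbers came from the labels. Per the study's methods, the libraries are biological replicates from a repeated experiment, but the sources used here do not state that a replicate number marks 1 repeat.

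Genes were filtered with filterByExpr (minimum count 10, minimum total 15), scaled by TMM and tested by quasi-likelihood F tests in edgeR 4.0.16 (R 4.3.3), adjusted by Benjamini-Hochberg over 20987 genes. SE is the size of the log2 fold change divided by the square root of F. One read equalled 0.0480 to 0.0523 CPM, and limits on counts of 0 cover counting error only. Lengths, symbols and sequences came from the RefSeq annotation of TAIR10.1, with mRNA lengths limited to the deposited gene spans. Of the identifiers, 32835 were found on the same chromosome there. Gene positions are those of the files, counted from 1.

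All members were named, with every called gene and every gene left out by the filter from the other sulfur lists. The members and lists were chosen with earlier results of these data known. On simulated data with 200 of 20728 genes changed, 88% of 2-fold and 97% of 4-fold changes were called, and 6.09% of calls were false. In the data a far larger part of the genes was called (22.9%), and smaller changes than 2-fold could be called. These rates may therefore not hold for the calls given here. Alternatives were DESeq2 1.42.0, other scalings, filters and fold minimums, a GC correction, a replicate block and each library left out.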

Additional observations from a re-analysis of the deposited data

How the results depend on the processing

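SULTR1;2 and SULTR2;1 were called lower under all alternatives run, and APR1 under all except a fold minimum of 1, which its log2 fold change of -0.69 does not reach. The members called lower numbered 3 in each fit without 1 library, and the members called higher 0 to 1. Without 1 library, the log2 fold change was -0.31 to 0.52 for SULTR1;1 and 0.21 to 1.16 for SDI1. Without a fold minimum, 3887 genes were higher and 4061 lower, and with a minimum of 1, 1099 were higher and 1072 lower. With that minimum 3 of the other sulfur genes were higher and 3 lower. Their counts without 1 library were 10 to 12 higher and 5 to 7 lower.

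Deviations of BAP and DMSO libraries with the same replicate number correlated at 0.212, 0.0508 and 0.291. Those with different numbers correlated at -0.285 to 0.0664. The main fit did not take the numbers as pairs, because the sources used here do not state that a number marks 1 repeat. These correlations do not settle whether it does. With a replicate block, SULTR2;2 was called lower (log2 fold change -0.56, edgeR adjusted p = 0.0400), and likewise with the block and a GC correction (-0.56, adjusted p = 0.0409), which makes 4 members lower. Over its alternatives the adjusted p of SULTR2;2 is otherwise above the threshold.

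Over the called sulfur genes outside the members, 308 of the alternative values kept the call, 28 in 13 genes lost it and 0 reversed. SULTR1;1, LSU1 and SDI1 rest on 18 to 80 reads per library, and whether depth limits their calls was not tested.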
